A study of Mus musculus with 16 samples.

Results

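Rora, Il17a, Il17f, Il23r and Il1r1 were followed through 12 RNA-seq and 4 H3K27me3 ChIP-seq libraries made from CD4 T cells of Ezh2-deleted and control mice. The set was chosen by gene name, and its 5 genes were among 23420 counted in the RNA files and 22269 gene intervals counted in the ChIP files. Of the 5, only Rora had enough reads to be tested in the RNA, while all 5 were tested for H3K27me3.

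The Ezh2-deleted cells came from Ezh2 fl/fl.CD4Cre mice, in which the Cd4 promoter drives Cre from the thymus onward, and are titled Ezh2KO. The control cells came from Ezh2 fl/fl mice without Cre, which carry the same floxed allele and are labelled wild type. Naive CD4 T cells were sorted and stimulated with plate-bound anti-CD3 (5 ug/ml) and soluble anti-CD28 (1 ug/ml). Cultures called iTreg (induced regulatory T cells) also had IL-2 at 200 U/ml and TGF-beta1 at 5 ng/ml, and cultures called Th0 (activated without polarizing cytokines) had IL-2 at 50 U. Library titles put iTreg cells at day 5 and Th0 cells at day 4, though the written protocol has all cultures harvested on day 4, so cytokines, IL-2 dose and day cannot be told apart between cultures. RNA came from 3 biological replicates of each genotype in each culture, and ChIP from 2 of each genotype in Th0. Neither IL-6, IL-23 nor IL-1, the cytokines used to make Th17 cells, was among the additions, and the ages of the mice are not given in the sources used here.

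Th17 cells are helper T cells that defend barrier surfaces against fungi and extracellular bacteria and that drive several inflammatory diseases. Rora encodes RORalpha, a nuclear receptor of the ROR family that binds the hexamer AGGTCA and takes part in switching on the Th17 genes. Il17a and Il17f lie side by side and encode the IL-17 cytokines. Il23r encodes the specific chain of the IL-23 receptor, which pairs with Il12rb1 and sustains Th17 cells, and Il1r1 encodes the signalling receptor for IL-1, a cytokine that promotes them. TGF-beta1 is shared by the recipes for iTreg and Th17 cells, and the other cytokines present decide between them. Ezh2 is the enzyme of Polycomb repressive complex 2 that places the repressive mark H3K27me3.

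The promoters are shown because the ChIP mark can be written over such regions and because ROR proteins read the AGGTCA hexamer. The counted ChIP intervals begin at the gene start, so the bases shown here lie outside them. Each line holds the 250 bases upstream of the RefSeq start (GRCm38.p6, gene strand). For Rora the capitals mark each CG pair, and for the other genes they mark AGGTCA or its reverse complement TGACCT.
Rora, chr9:68653536-68653785, plus strand: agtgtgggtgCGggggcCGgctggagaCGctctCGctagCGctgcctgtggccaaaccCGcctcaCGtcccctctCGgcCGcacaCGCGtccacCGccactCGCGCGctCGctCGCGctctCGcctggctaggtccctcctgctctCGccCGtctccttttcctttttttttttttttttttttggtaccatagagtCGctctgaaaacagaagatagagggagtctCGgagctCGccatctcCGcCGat
Il17a, chr1:20730655-20730904, plus strand: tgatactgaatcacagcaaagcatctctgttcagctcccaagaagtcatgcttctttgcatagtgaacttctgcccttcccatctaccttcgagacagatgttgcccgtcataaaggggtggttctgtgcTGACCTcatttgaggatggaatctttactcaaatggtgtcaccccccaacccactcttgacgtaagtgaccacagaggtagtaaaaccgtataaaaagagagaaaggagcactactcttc
Il17f, chr1:20784271-20784520, minus strand: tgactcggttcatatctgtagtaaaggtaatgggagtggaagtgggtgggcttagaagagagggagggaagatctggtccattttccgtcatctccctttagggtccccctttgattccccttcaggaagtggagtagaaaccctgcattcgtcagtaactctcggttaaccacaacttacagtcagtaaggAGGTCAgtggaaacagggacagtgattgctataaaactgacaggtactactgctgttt
Il23r, chr6:67491856-67492105, minus strand: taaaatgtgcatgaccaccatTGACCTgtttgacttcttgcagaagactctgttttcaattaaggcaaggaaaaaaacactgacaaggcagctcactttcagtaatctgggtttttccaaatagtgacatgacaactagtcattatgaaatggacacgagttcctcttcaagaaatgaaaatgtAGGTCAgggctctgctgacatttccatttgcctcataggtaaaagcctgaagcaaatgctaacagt

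The Rora promoter held 26 CG pairs in its 250 bases, more than 90.4% of the 32851 promoters in the RefSeq table, whose median was 6. Il17a and Il17f held 4 each and Il23r held 1. The hexamer AGGTCA, searched on both strands, occurred in 14.0% of all promoters. Il17a had 1 match, with its first base 120 bases upstream of the start, and Il17f had 1, 58 bases upstream. Il23r had 2, starting 229 and 66 bases upstream. Neither the Rora promoter nor either of the Il1r1 promoters in the table, with 3 and 7 CG pairs, held the hexamer. A match is a string of letters and was not tested for binding.

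The RNA libraries held 21910114 to 28443427 counted reads and the ChIP libraries 11124172 to 15103496. Ezh2 RNA itself, counted over the whole gene, had 123, 118 and 48.7 CPM (reads of a gene per 1000000 counted reads of the library) in Ezh2-deleted iTreg libraries against 251, 241 and 166 CPM in control iTreg libraries. It had 169, 154 and 148 CPM in Ezh2-deleted Th0 libraries against 307, 295 and 312 CPM in control Th0 libraries, so transcripts of the gene remained. The difference had an adjusted p of 0.0235 in iTreg and 0.0618 in Th0 (edgeR). Foxp3, the regulatory T cell factor that iTreg culture induces, averaged 79.5 ± 13.1 CPM in Ezh2-deleted and 913 ± 64.7 CPM in control iTreg cells, and 3.91 ± 1.97 CPM in Th0 cells with the deletion and 20.9 ± 4.37 CPM in those without (SD, n = 3 each). The iTreg libraries Ezh2KO.165 and Ezh2fl/fl.177 stood apart from their own replicates. Chi-square of the counts, divided by its degrees of freedom, was 442 and 471 for Ezh2KO.165 against its replicates and 173 and 141 for Ezh2fl/fl.177 against its own, while the other pairs of replicates gave 3.84 to 17.5. Xist, the RNA of the inactive X chromosome, was at 1143 and 1052 CPM in the iTreg and Th0 libraries titled Ezh2KO.165 and at 0.857 CPM or below in the rest, so the mice were not of 1 sex. The iTreg results for Rora, Il23r and Il17f and the counts of pathway genes are given with and without these libraries. Other iTreg results include them and are not all given without them.

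Rora RNA was higher in Ezh2-deleted than in control Th0 cells and was higher in control iTreg than in control Th0 cells. In Th0 culture Rora had 3.01 CPM (78 reads) in Ezh2KO.165, 2.53 CPM (68 reads) in Ezh2KO.174 and 1.86 CPM (53 reads) in Ezh2KO.175, against 0.33, 0.22 and 0.23 CPM (8, 6 and 6 reads) in the control libraries Ezh2fl/fl.173, Ezh2fl/fl.176 and Ezh2fl/fl.177. Every Ezh2-deleted Th0 library lay above every control one, as the plot of Rora by library shows. The log2 change was 3.20 (SE 0.633, adjusted p = 0.00972, edgeR quasi-likelihood test with all 12 libraries, Benjamini-Hochberg over 12845 genes), in a comparison in which 8.74% of tested genes were higher. The adjusted p was 0.0502 without Th0 Ezh2fl/fl.176, with a log2 change of 3.10 (edgeR). It was 8.1e-06 when the 6 Th0 libraries were fitted alone (edgeR), a fit in which 26.5% of genes were higher and 25.6% lower. These are bulk samples, in which more cells that express a gene and more RNA per cell cannot be told apart.

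**Figure D1:**
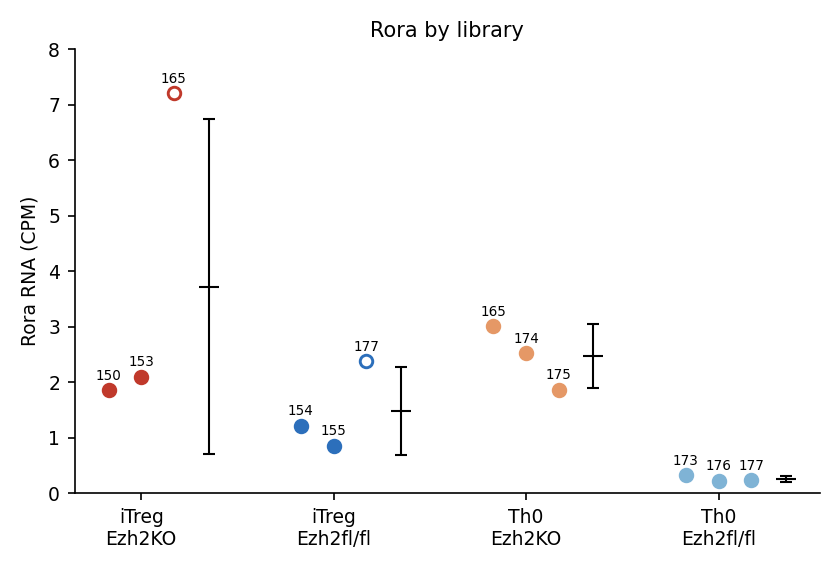
Rora RNA in CPM by library, grouped by culture and genotype, with the title number above each point, the mean as a dash and the SD as bars (n = 3), and open points for the 2 iTreg libraries that stood apart. The Ezh2-deleted Th0 points (1.86 to 3.01 CPM) lie above the control Th0 points (0.22 to 0.33 CPM), while the iTreg genotypes overlap.

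In iTreg culture Rora had 1.86 CPM (45 reads) in Ezh2KO.150, 2.1 CPM (49 reads) in Ezh2KO.153 and 7.21 CPM (158 reads) in Ezh2KO.165, against 1.22, 0.86 and 2.38 CPM (32, 21 and 59 reads) in the control libraries Ezh2fl/fl.154, Ezh2fl/fl.155 and Ezh2fl/fl.177. The highest value of each genotype was in the library that stood apart, and the genotypes overlapped. The log2 difference of 1.33 (SE 0.546, adjusted p = 0.140, edgeR) did not pass the threshold of 0.05, where 9.45% of genes were higher. Without Ezh2KO.165 it was 0.42 (adjusted p = 0.395, edgeR), where 21% of genes were higher. Without both libraries that stood apart it was 0.92 (SE 0.306, adjusted p = 0.0193, edgeR). That did pass, in a fit where 28.7% of genes were higher and 28.3% lower. The difference between the genotype changes of the cultures, iTreg minus Th0, was -1.87 on the log2 scale (SE 0.823, adjusted p = 0.311, edgeR), where 4.49% of genes passed. It was -2.78 without Ezh2KO.165 (adjusted p = 0.0110, edgeR), where 8.09% of genes were higher and 11.5% lower. Without both libraries it was -2.27 (adjusted p = 0.00128, edgeR), where 19.9% of genes were higher and 21.3% lower. Whether Rora changed more in Th0 than in iTreg thus rested on these libraries.

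Between cultures, control cells had more Rora in iTreg than in Th0, by 2.43 on the log2 scale (SE 0.635, adjusted p = 0.0185, edgeR), with no overlap, where 19.9% of genes were higher in iTreg. The adjusted p was 0.0704 without iTreg Ezh2fl/fl.177, 0.0696 without Th0 Ezh2fl/fl.176 and 0.0644 without Th0 Ezh2fl/fl.177. In Ezh2-deleted cells the log2 difference between iTreg and Th0 was 0.56 (SE 0.531, adjusted p = 0.413, edgeR), where 25.4% of genes passed, and it turned to -0.34 without iTreg Ezh2KO.165. In order of level, Rora averaged 3.72 ± 3.02 CPM in Ezh2-deleted iTreg, 2.47 ± 0.577 CPM in Ezh2-deleted Th0, 1.48 ± 0.794 CPM in control iTreg and 0.259 ± 0.0576 CPM in control Th0 cells (SD, n = 3 each). The first 3 of these groups overlap each neighbour in that order, and control Th0 lay below all of them.

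The summed markers of gamma-delta and innate-like T cells, B cells and myeloid cells were higher in Ezh2-deleted Th0 cells, where Rora was too. Myeloid markers summed to 2.57 to 3.05 CPM in Ezh2-deleted and 1.45 to 1.95 CPM in control Th0 libraries. CD8 T cell markers overlapped, at 6.33 to 10.0 and 6.91 to 10.0 CPM. The summed ILC2 list was lower, at 122 to 125 CPM in Ezh2-deleted and 162 to 187 CPM in control Th0 libraries, but its genes went different ways. Bcl11b, a factor that T cells share, had a log2 change of -0.57 in Th0 (adjusted p = 0.535, edgeR). The receptors Il1rl1 (3.44, adjusted p = 0.0794, edgeR) and Il17rb (4.06, adjusted p = 0.166, edgeR) went up, so the sum does not show a fall of ILC2 markers as a set. No tested myeloid, CD8 T or ILC2 marker passed the threshold there. The summed level of 6 markers of gamma-delta and innate-like T cells was 3.99 to 15.9 CPM in Ezh2-deleted and 1.75 to 3.47 CPM in control iTreg libraries, and 6.93 to 11.7 CPM in Ezh2-deleted and 2.11 to 3.06 CPM in control Th0 libraries. The highest sum was in iTreg Ezh2KO.165, where Klrb1f alone had 14.7 CPM. Of the 4 that could be tested, Blk and Klrb1c were higher in Ezh2-deleted Th0 cells, while in Ezh2-deleted iTreg cells Klrb1c was higher and Blk lower. Over all tested genes 8.74% were higher in Th0, and 9.45% were higher and 7.26% lower in iTreg. Cd163l1, a marker of IL-17-producing gamma-delta T cells, did not exceed 0.248 CPM in any library. The 6 B cell markers summed to 193 to 442 CPM in Ezh2-deleted and 65.3 to 109 CPM in control Th0 libraries. All 6 were higher, where 8.74% of all genes were. In iTreg they summed to 18.6 to 60.5 CPM in Ezh2-deleted and 24.3 to 26.4 CPM in control libraries. There 3 of 6 were lower, where 7.26% of all genes were. Between the cultures of control cells, 3 of 6 B cell markers were lower in iTreg, where 11.5% of all genes were. None of the 4 tested gamma-delta and innate-like markers passed there. The part of these cells in the Rora results was not tested. The T cell identity list (Cd3d, Cd3e, Cd3g, Cd4, Cd5 and Lck) summed to 1274 to 1519 CPM in Ezh2-deleted and 2163 to 2213 CPM in control Th0 libraries, without overlap, and to 1886 to 3071 CPM in Ezh2-deleted and 2139 to 2698 CPM in control iTreg libraries. Cd4 (log2 change -0.88, SE 0.125, adjusted p = 0.00170, edgeR) and Cd5 (-1.60, SE 0.305, adjusted p = 0.00805, edgeR) were lower in Ezh2-deleted Th0 cells, and the part of this in the Rora result was not tested.

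The 5 genes whose log2 CPM followed Rora most closely over the 12 libraries, among 9395 with a mean of at least 5 CPM, were Hid1 (Pearson r 0.977), Casc4 (0.972), H6pd (0.972), Pik3r3 (0.966) and Baiap3 (0.965). Hid1 averaged 120 ± 97.8 CPM in Ezh2-deleted and 36.5 ± 23.5 CPM in control iTreg cells, and 49.7 ± 4.69 CPM in Th0 cells with the deletion and 8.73 ± 0.0832 CPM in those without (SD, n = 3 each). Baiap3 had the same order of groups, with 35.5 ± 38.8 and 5.46 ± 5.77 CPM in Ezh2-deleted and control iTreg cells and 7.87 ± 2.35 and 0.349 ± 0.0788 CPM in Ezh2-deleted and control Th0 cells. The 12 points share 4 groups and the iTreg libraries that stood apart, so these correlations are descriptions.

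Il23r was read almost only in Ezh2-deleted iTreg cells. It had 13, 17 and 8 reads in the Ezh2-deleted iTreg libraries, against 1, 1 and 0 reads in the control iTreg libraries, in the order of titles used for Rora. Ezh2-deleted Th0 libraries had 0, 2 and 0 reads and control Th0 libraries 1, 1 and 0. The 3 Ezh2-deleted iTreg libraries lay above the other 9, and in each of the other groups the reads summed to 2. Scaled to library totals, the Ezh2-deleted iTreg cells had 20.7 times the level of control iTreg cells, with an exact 95% interval from 5.34 to 177 that covers counting error only. They had 22.2 times the level of Ezh2-deleted Th0 cells (5.75 to 190). An exact two-sided permutation test over samples gave p = 0.1 in each comparison, the smallest that 3 against 3 samples allow. Il23r missed the filter, which asked for about 10 reads (0.394 CPM) in 3 libraries, by the 8 reads of Ezh2KO.165. With no filter, edgeR gave a log2 change of 4.13 in iTreg (SE 0.876, adjusted p = 0.0111) and -0.09 in Th0 (SE 1.25), and the difference between them, 4.22, had an adjusted p of 0.359 (edgeR). Without both iTreg libraries that stood apart, 30 reads against 2 gave a ratio of 16.0 (95% counting interval 4.07 to 138), a comparison chosen after seeing the data.

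The level was low even there. Per kilobase of counted length, Il23r averaged 0.219 ± 0.0731 CPM in Ezh2-deleted iTreg cells, where Rora averaged 2.26 ± 1.84 CPM per kilobase (SD, n = 3). Il1r1, with the longest counted length of the set, had 0, 1 and 0 reads in Ezh2-deleted and 1, 0 and 0 in control iTreg libraries. It had 3, 0 and 2 reads in Ezh2-deleted and none in control Th0 libraries. With no filter, its Th0 difference had an adjusted p of 0.272 (edgeR), and no library held more than 3 reads, so a difference was not detectable at this depth.

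**Figure D2:**
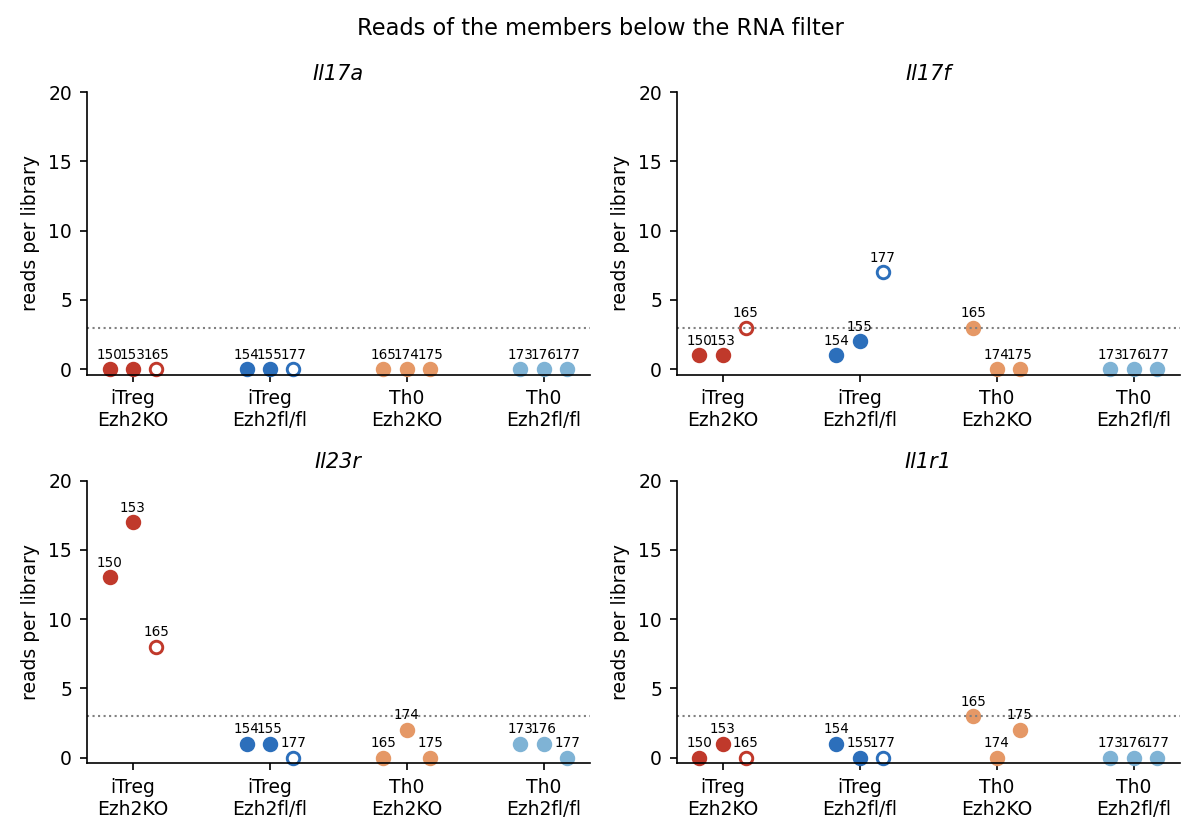
Reads of Il17a, Il17f, Il23r and Il1r1 in each of the 12 RNA libraries, grouped by culture and genotype, with title numbers above the points, open points for the 2 iTreg libraries that stood apart and a dotted line at 3 reads. Il23r reaches 8 to 17 reads in Ezh2-deleted iTreg libraries and at most 2 elsewhere, and Il17a has no read.

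The cytokine genes were at or near no reads. Il17a had 0 reads in all 12 libraries, which allows up to 3 reads, or 0.105 to 0.137 CPM depending on the library. Il17f had 1, 1 and 3 reads in Ezh2-deleted and 1, 2 and 7 reads in control iTreg libraries, and 3, 0 and 0 reads in Ezh2-deleted and none in control Th0 libraries. The highest Il17f count was in iTreg Ezh2fl/fl.177, a library that stood apart. Ezh2-deleted iTreg cells had 0.544 times the Il17f level of control iTreg cells, with a 95% counting interval from 0.146 to 1.75 that includes equality. Without Ezh2fl/fl.177 the counts were 5 against 3 and the ratio was 1.22 (0.237 to 7.85), and without both libraries that stood apart they were 2 against 3 and it was 0.712 (0.0595 to 6.22), both chosen after seeing the data. With no filter, none of the Il17f contrasts passed the threshold, the lowest adjusted p being 0.0861 for iTreg against Th0 in control cells (edgeR). Il22, another Th17 cytokine gene, also had no read in any library.

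Other genes of the Th17 programme were taken from 6 lists by role, of which 28 of 32 genes could be tested. In Th0, 7 were higher and 1 lower in Ezh2-deleted cells, where 8.74% and 3.22% of all tested genes were, and their median log2 change was 0.15 against -0.0017 over all genes. In iTreg, 5 were higher and 5 lower, where 9.45% and 7.26% of all genes were, with a median of 0.12 against 0.01. The counts rested on the libraries used: without both iTreg libraries that stood apart, 12 were higher and 8 lower in Th0 and 8 were higher and 12 lower in iTreg, of 30 tested. In that fit 26.3% and 25.3% of all genes were higher and lower in Th0 and 28.7% and 28.3% in iTreg, so the 8 lower in Th0 and the 8 higher in iTreg were near the share of all genes. With the 6 libraries of a culture alone, 12 of 28 were higher and 7 lower in Th0 (26.5% and 25.6% of all genes), and 2 of 27 higher and 4 lower in iTreg (2.67% and 1.68%). Leaving out each library in turn gave 5 to 9 higher and 0 to 4 lower in Th0, and 4 to 7 higher and 4 to 10 lower in iTreg. Over all genes the shares in those fits were 4.58% to 15.8% higher and 1.45% to 11.3% lower in Th0, and 5.86% to 21.0% higher and 4.64% to 23.3% lower in iTreg. The genotype change itself differed between cultures for 7 of the 28, with 1 higher and 6 lower in iTreg, where 1.63% and 2.86% of all genes were. Those counts were 0 to 3 and 5 to 12 when each library was left out (0.55% to 8.09% and 1.50% to 11.5% of all genes). Without both libraries that stood apart they were 5 and 14 of 30, where 19.9% and 21.3% of all genes were, so the 5 were near the share of all genes.

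Among 9 Th17 transcription factors, Maf, Ahr and Fosl2 rose in Ezh2-deleted Th0 cells. Maf, a factor that supports Th17 and Il10 expression, had 57.8, 39.4 and 43.3 CPM in Ezh2-deleted and 2.24, 2.52 and 2.75 CPM in control Th0 libraries, a log2 change of 4.19 (SE 0.554, adjusted p = 0.00117, edgeR). Ahr, the aryl hydrocarbon receptor that promotes Il22 and Il17 expression, had 23.9, 20.2 and 18.1 CPM in Ezh2-deleted and 1.34, 1.19 and 1.60 CPM in control Th0 libraries (log2 change 3.88, SE 0.644, adjusted p = 0.00419, edgeR). Fosl2, an AP-1 factor that limits Th17 genes, had 95.2, 67.4 and 75.5 CPM in Ezh2-deleted and 8.54, 8.16 and 7.68 CPM in control Th0 libraries (log2 change 3.25, SE 0.273, adjusted p = 0.000133, edgeR). The groups did not overlap for any of the 3. They also did not overlap in Th0 for genes without a called change, such as Myd88 (log2 change 0.08, adjusted p = 0.744, edgeR) and Irak4 (0.11, adjusted p = 0.826, edgeR). A lack of overlap there is thus not particular to these factors.

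In Ezh2-deleted iTreg cells Fosl2 rose by 1.21 on the log2 scale (SE 0.260, adjusted p = 0.0101, edgeR), and its adjusted p was 0.125 in the 6 iTreg libraries alone. Ahr had 119, 111 and 16.4 CPM in Ezh2-deleted and 24.2, 21.7 and 37.2 CPM in control iTreg libraries (adjusted p = 0.0874, edgeR), its lowest value being in Ezh2KO.165. Runx1, a factor that can act with ROR proteins at Il17a, fell in Ezh2-deleted iTreg cells, with 4.63, 4.46 and 9.08 CPM in Ezh2-deleted and 103, 123 and 133 CPM in control libraries (log2 change -4.30, SE 0.277, adjusted p = 1.8e-05, edgeR). In Th0 it had 60.6, 51.8 and 45.4 CPM in Ezh2-deleted and 73.9, 73.7 and 75.7 CPM in control libraries (adjusted p = 0.216, edgeR).

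Of the surface and kinase genes, Gpr65, a proton-sensing receptor, rose in both cultures, by 1.34 in iTreg (SE 0.184, adjusted p = 0.000963, edgeR) and by 1.14 in Th0 (SE 0.183, adjusted p = 0.00348, edgeR). Sgk1, a salt-sensing kinase that stabilizes Il23r expression, had 31.2, 32.9 and 32.1 CPM in Ezh2-deleted and 200, 189 and 118 CPM in control iTreg libraries. In Th0 it had 58.3, 51.4 and 58.4 CPM in Ezh2-deleted and 12.4, 16.6 and 14.9 CPM in control libraries. It thus fell in iTreg (log2 change -2.39, SE 0.197, adjusted p = 6.8e-05, edgeR) and rose in Th0 (1.90, SE 0.195, adjusted p = 0.000307, edgeR). Ccr6, the chemokine receptor of Th17 cells, fell in Ezh2-deleted iTreg cells to 0.04, 0.04 and 0 CPM, against 2.13, 2.49 and 2.90 CPM in control libraries (adjusted p = 0.000258, edgeR). In Th0 its genotypes overlapped (adjusted p = 0.860, edgeR).

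**Figure D3:**
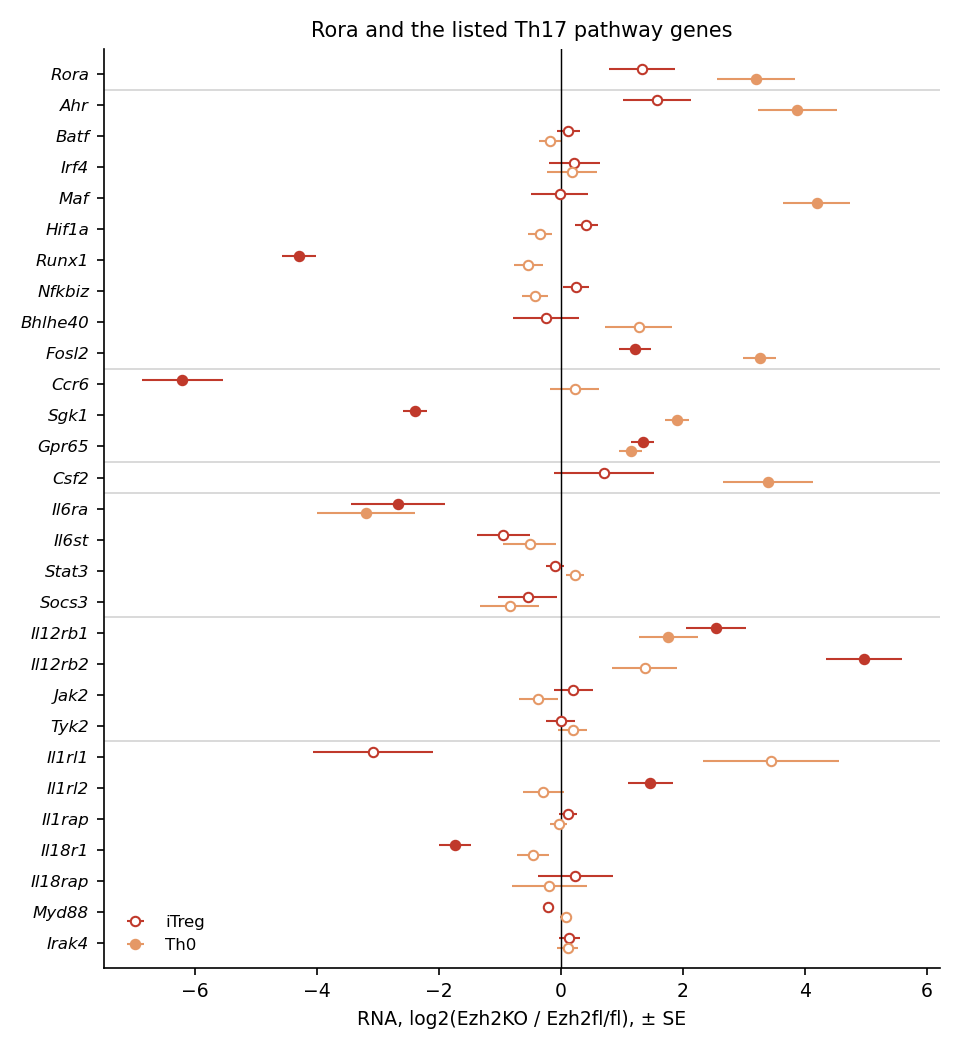
Log2 RNA change, Ezh2KO over Ezh2fl/fl, with SE bars, of Rora and the 28 tested pathway genes in iTreg (red) and Th0 (orange), grouped by role, with filled points where the adjusted p was under 0.05. Sgk1 lies at -2.39 in iTreg and 1.90 in Th0, and Runx1 and Ccr6 are far to the left in iTreg.

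Among the partners of Il23r, Il12rb1, the chain it shares with the IL-12 receptor, had 152.97, 168 and 42.9 CPM in Ezh2-deleted and 30.7, 21.6 and 10.4 CPM in control iTreg libraries (log2 change 2.54, SE 0.497, adjusted p = 0.00626, edgeR). The 6 iTreg libraries alone gave an adjusted p of 0.104. In Th0 Il12rb1 had 285, 249 and 261 CPM in Ezh2-deleted and 75.6, 73.1 and 80.2 CPM in control libraries (adjusted p = 0.0407, edgeR). That call was lost without any 1 of the 6 Th0 libraries (adjusted p 0.0928 to 0.137) and without iTreg Ezh2KO.150 (0.0531) or Ezh2fl/fl.155 (0.0634). Il12rb2, the IL-12-specific chain that lies beside Il23r on chromosome 6, had 617, 623 and 142 CPM in Ezh2-deleted and 23.5, 14.1 and 6.85 CPM in control iTreg libraries (log2 change 4.96, SE 0.625, adjusted p = 0.000616, edgeR). In Th0 it had 192, 241 and 252 CPM in Ezh2-deleted and 100, 75.9 and 82.4 CPM in control libraries (adjusted p = 0.148, edgeR). The kinases Jak2 and Tyk2 did not pass the test in either culture.

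Il6ra, the receptor chain through which IL-6 starts the Th17 programme, was lower in Ezh2-deleted cells, with 15.2, 13.8 and 126 CPM in Ezh2-deleted and 239, 276 and 478 CPM in control iTreg libraries (log2 change -2.67, SE 0.774, adjusted p = 0.0404, edgeR). That call was lost without any library other than iTreg Ezh2KO.165 (adjusted p 0.0559 to 0.0962). In Th0 Il6ra had 5.33, 5.01 and 8.97 CPM in Ezh2-deleted and 58.1, 55.1 and 60.5 CPM in control libraries (log2 change -3.20, SE 0.801, adjusted p = 0.0282, edgeR), and the call was lost without any 1 of the 6 Th0 libraries (0.0681 to 0.113). Csf2, which encodes the inflammatory cytokine GM-CSF, was the only tested gene of the cytokine list. It had 3.63, 1.60 and 1.55 CPM in Ezh2-deleted and 0.08, 0.11 and 0.42 CPM in control Th0 libraries (log2 change 3.40, SE 0.736, adjusted p = 0.0145, edgeR). The adjusted p was 0.0563 without Th0 Ezh2KO.165, 0.0723 without Th0 Ezh2fl/fl.173 and 0.0770 without Th0 Ezh2fl/fl.176.

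Of the family around Il1r1, 7 of 8 listed genes were tested. Il18r1, the IL-18 receptor chain, fell in Ezh2-deleted iTreg cells to 175.02, 196 and 151 CPM, against 535, 570 and 645 CPM in control libraries (log2 change -1.74, SE 0.265, adjusted p = 0.00164, edgeR). Il1rl2, the IL-36 receptor, rose by 1.47 in iTreg (SE 0.368, adjusted p = 0.0217, edgeR). The Il1rl2 call was lost without iTreg Ezh2KO.150 (0.0814), Ezh2KO.153 (0.0532), Ezh2fl/fl.155 (0.0913) or Ezh2fl/fl.177 (0.0551), and in the 6 iTreg libraries alone (0.134). In Th0 none of the 7 passed the threshold.

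Between cultures, 9 of the 28 pathway genes were higher and 5 lower in iTreg than in Th0 in Ezh2-deleted cells (16.6% and 8.75% of all genes), and 10 were higher and 6 lower in control cells (19.9% and 11.5%). Leaving out each library in turn gave 1 to 9 higher and 3 to 7 lower in Ezh2-deleted cells (5.26% to 21.7% and 3.13% to 12.6% of all genes), and 6 to 15 higher and 4 to 9 lower in control cells (10.1% to 33.7% and 5.12% to 29.2%). With 6 libraries alone, edgeR gave counts of 0 and 4 of 28 in Ezh2-deleted cells, where 3.09% and 1.69% of all genes passed, and of 14 and 8 of 27 in control cells, where 26.6% and 26.8% passed. Maf was 5.90 higher on the log2 scale in iTreg in control cells (SE 0.595, adjusted p = 0.000193, edgeR), and Ahr was 4.26 higher (SE 0.652, adjusted p = 0.00161, edgeR). These comparisons share their Th0 control libraries with the genotype comparison in Th0.

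H3K27me3 in Th0 cells was counted over whole genes and is given as density, in CPM per kb of gene interval. In control cells the 5 genes lay between the 66.2nd and 91.6th percentiles of all intervals, and in Ezh2-deleted cells the mean density of each was lower. Of the 5, Il17a, Il1r1 and Rora passed the test as lower, none as higher, where 20.6% of all intervals were lower and 32.2% higher. The median of the 5 log2 changes was -0.54 against 0.21 over all 20376 tested intervals. As a check of the label, Cdkn2a, a classical Polycomb target, had 1.60 CPM per kb in Ezh2-deleted and 6.27 CPM per kb in control cells (log2 change -1.97, SE 0.182, adjusted p = 5.5e-05, edgeR), and Actb, which encodes actin, had 1.29 in Ezh2-deleted and 0.552 in control cells (log2 change 1.19, SE 0.393, adjusted p = 0.0239, edgeR). Changes were scaled by library totals, and with TMM scaling the median of all intervals was -0.02 and all 5 genes passed as lower. Without input or spike-in libraries the densities are relative, so a higher value in Ezh2-deleted cells is not by itself a gain of the mark.

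Il17a (chr1:20730905-20734496, 3592 bases) had the highest density of the set, at 1.27 and 1.48 CPM per kb in the Ezh2-deleted libraries 10 and 9, against 2.43 and 2.31 CPM per kb in the control libraries 33 and 7. Its log2 change was -0.79 (SE 0.267, adjusted p = 0.0259, edgeR), on 59 to 103 reads per library. Il17f (chr1:20777151-20784270), 42.7 kb away, had 1.04 and 1.26 CPM per kb in Ezh2-deleted and 1.77 and 1.58 CPM per kb in control libraries (log2 change -0.54, SE 0.253, adjusted p = 0.0896, edgeR), on 100 to 140 reads per library. Of Il17a and Il17f, only Il17a passed the threshold.

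Il1r1 (chr1:40225080-40316198) had 1.12 and 1.04 CPM per kb in Ezh2-deleted and 1.56 and 1.62 CPM per kb in control libraries (log2 change -0.56, SE 0.131, adjusted p = 0.00521, edgeR). Rora (chr9:68653786-69388246, 734461 bases) had 1.05 and 0.974 CPM per kb in Ezh2-deleted and 1.27 and 1.30 CPM per kb in control libraries (log2 change -0.35, SE 0.0924, adjusted p = 0.00882, edgeR). Its many reads, 7965 to 11866 per library, make the smaller change of Rora measurable, and a whole-gene count does not show where in the gene the mark lay. Il23r (chr6:67422932-67491855) had 1.05 and 0.990 CPM per kb in Ezh2-deleted and 1.31 and 1.1 CPM per kb in control libraries (log2 change -0.24, SE 0.16, adjusted p = 0.225, edgeR), and it was the least changed of the 5.

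In fits without Ezh2KO library 10 or 9, which leave 1 Ezh2-deleted library, none of the intervals in the files passed (edgeR), with 7223 and 7401 of them at an unadjusted p under 0.05, so the calls lost there are not particular to these genes. In those 2 fits the adjusted p was 0.231 and 0.153 for Il17a and 0.0906 and 0.106 for Il1r1, and for Rora it lay between 0.0607 and 0.0921 without any 1 of the 4 libraries (edgeR). Without control library 7, Il17f (0.0315) and Il23r (0.0441) passed. The 5 log2 changes were negative in every one of these fits, at -0.89 to -0.68 for Il17a, -0.61 to -0.51 for Il1r1 and -0.40 to -0.30 for Rora.

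**Figure D4:**
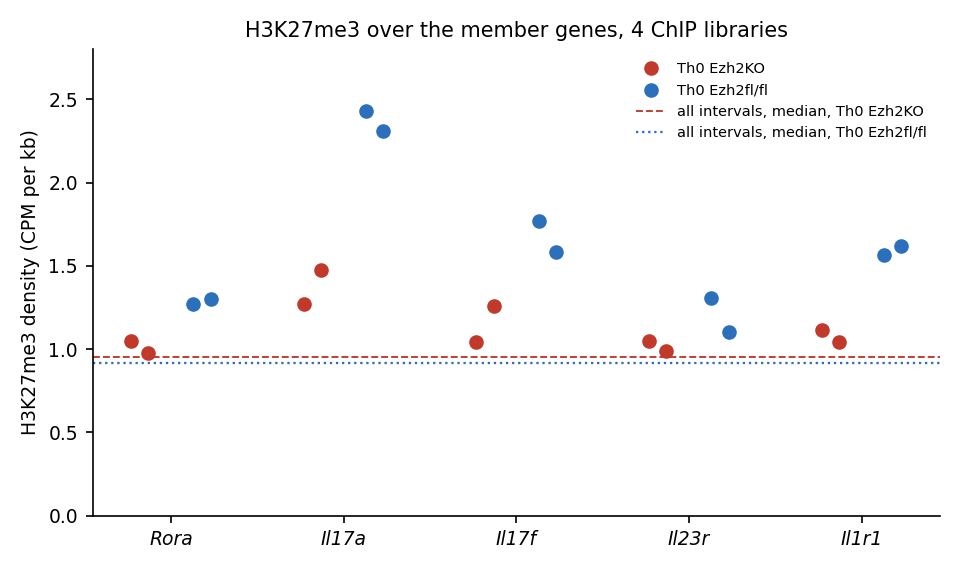
H3K27me3 density in CPM per kb over the 5 genes in the Ezh2-deleted (red) and control (blue) Th0 libraries, with lines at the medians of all tested intervals (0.952 in Ezh2-deleted and 0.919 in control cells). Il17a shows the widest gap, 1.27 and 1.48 against 2.43 and 2.31, and in Ezh2-deleted cells the 5 genes still lie above the median of all intervals.

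In Ezh2-deleted cells the 5 genes lay between 1.01 and 1.37 CPM per kb, and in control cells between 1.20 and 2.37. The median over all intervals was 0.952 CPM per kb in Ezh2-deleted and 0.919 CPM per kb in control cells. By rank among all intervals, Il17a stood at the 92.6 percentile in Ezh2-deleted and the 91.6 percentile in control cells, and Rora at the 59.5 percentile in Ezh2-deleted and the 69.7 percentile in control cells. In control Th0 cells the order of mark from Il17a down to Il23r was not the order of RNA, since Il17a and Il17f had no reads and Rora 6 to 8. Rora, the only gene of the set tested in both assays, was higher in RNA and lower in H3K27me3 density in Th0. Its H3K27me3 call was lost without any 1 of the 4 ChIP libraries, including control library 33 or 7, without which other intervals still passed. Il17a, with the larger fall in density, had no read in either genotype.

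Among the nearest 2 intervals on each side of every gene, 15 neighbours were followed and 12 of them tested, with 4 higher and 1 lower in Ezh2-deleted cells, where 32.2% of all intervals were higher and 20.6% lower. Around Il17a and Il17f, Mcm3, a replication helicase gene 18.7 kb from Il17f, had a higher relative density in Ezh2-deleted cells, at 0.927 against 0.354 CPM per kb in control cells (log2 change 1.39, SE 0.253, adjusted p = 0.00160, edgeR). Beside Il23r, Il12rb2 had 1.05 CPM per kb in Ezh2-deleted and 0.805 CPM per kb in control cells (log2 change 0.38, adjusted p = 0.0501, edgeR). Upstream of Rora, 821 kb away, C2cd4a had 1.18 CPM per kb in Ezh2-deleted and 5.21 CPM per kb in control cells (log2 change -2.15, SE 0.34, adjusted p = 0.000704, edgeR). The nearer interval on that side, Vps13c at 658 kb, had a higher relative density (log2 change 0.80, SE 0.160, adjusted p = 0.00255, edgeR). So did Narg2, 9.66 kb downstream of Rora (0.78, SE 0.253, adjusted p = 0.0220, edgeR), while Anxa2 beyond it did not pass (0.21, adjusted p = 0.391, edgeR). Without Ezh2KO library 10 or 9 in turn the adjusted p was 0.0994 and 0.0915 for C2cd4a. Around Il1r1, the tested neighbours Il1r2, Gm16894, Il1rl2 and Il1rl1, of which 3 belong to the same receptor family, did not pass the threshold.

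**Figure D5:**
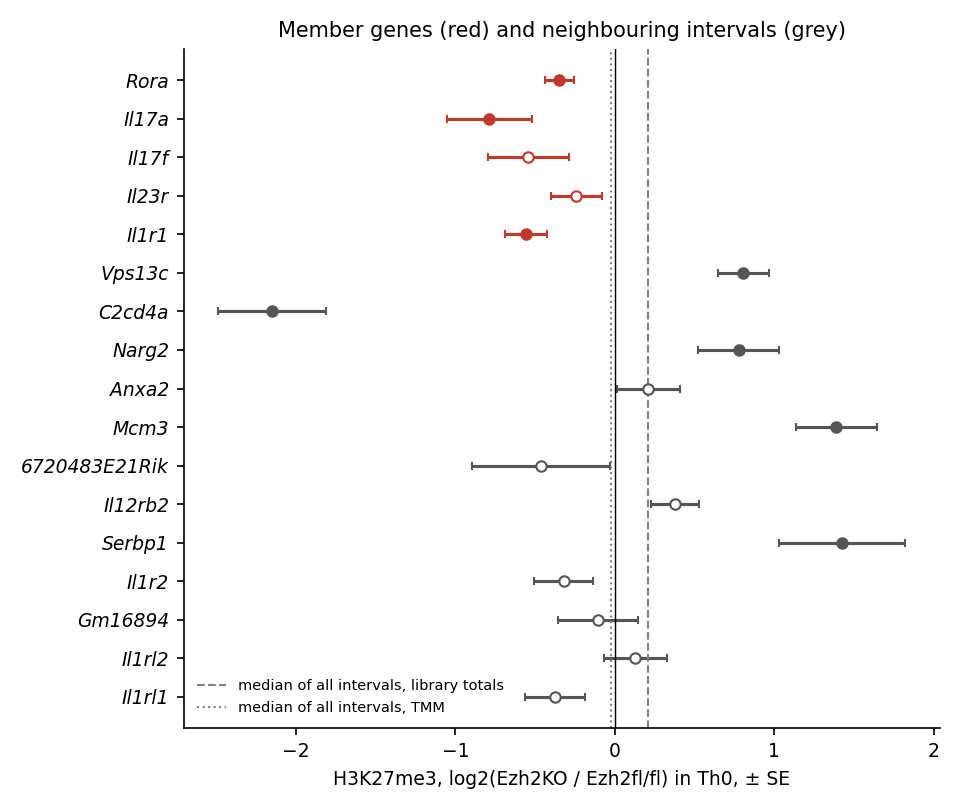
Log2 H3K27me3 change, Ezh2KO over Ezh2fl/fl in Th0, with SE bars, of the 5 genes (red) and 12 tested neighbours (grey), filled where the adjusted p was under 0.05, with the median of all intervals at 0.21 (library totals, dashed) and -0.02 (TMM, dotted). The 5 genes lie between -0.79 and -0.24, while neighbours range from -2.15 (C2cd4a) to 1.43 (Serbp1).

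Over the Th17 pathway genes, 15 of 31 tested had more of the counted ChIP reads in Ezh2-deleted cells and 3 had less. These are shares of a library's reads and not amounts of the mark. All intervals were higher in 32.2% and lower in 20.6%. With TMM scaling, which moved the median of all intervals to -0.02, the list counts were 9 and 9 and the shares of all intervals 24.3% and 28.0%. Their median log2 change was 0.38 and their median density in control cells was 0.696 CPM per kb. The 3 with less were Ccr6, with 1.08 CPM per kb in Ezh2-deleted and 2.85 CPM per kb in control cells (log2 change -1.40, SE 0.193, adjusted p = 0.000320, edgeR), Maf (log2 change -0.79, SE 0.205, adjusted p = 0.00792, edgeR) and Sgk1 (-0.35, SE 0.131, adjusted p = 0.0375, edgeR). Without Ezh2KO library 10 or 9 in turn the adjusted p was 0.0681 and 0.0757 for Ccr6, 0.125 and 0.138 for Maf and 0.165 and 0.141 for Sgk1, and it was 0.0585 for Sgk1 without control library 33. Maf and Sgk1 were also higher in RNA in Ezh2-deleted Th0 cells, while for Ccr6 RNA the genotypes overlapped there.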

How the data were processed

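RNA-seq and H3K27me3 ChIP-seq of mouse CD4 T cells were used as deposited raw read counts per gene (RNA) and per whole-gene interval (ChIP, mm10). Per the submitters' processing notes, the authors used Trimmomatic 0.30, TopHat2 2.0.6 (RNA), Bowtie2 2.1.0 (ChIP) and featureCounts 1.4.2. The RNA kit does not mark strand, so antisense reads cannot be told apart. None of the 5 intervals overlaps another in the files. Neither input nor spike-in libraries were used, so a global loss of the mark is not visible after scaling.

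Counts were tested with edgeR 4.0.16 in R 4.3.3: filterByExpr with a minimum count of 10, robust quasi-likelihood F tests, all 12 RNA libraries in 1 fit with TMM, 4 ChIP libraries scaled by library totals. Adjusted p-values are Benjamini-Hochberg over all features, two-sided, with 0.05 as the threshold. SE is the log2 change divided by the square root of F. CPM uses library totals, and intervals and floors of 3 counts cover counting error only, since reads carry no molecular identifiers. The scripts were checked on simulated data.

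The genes, lists and tests were chosen with earlier results of these data known. Named genes are the 5 genes, listed pathway genes, the 2 nearest ChIP intervals on each side (1 is not reported here), the 5 genes most alike Rora, and Ezh2. Pathway genes given values were selected from their lists by role and call. Alternatives were DESeq2 1.42.0, limma 3.58.1 with a replicate block, other scaling, no filter, and libraries left out.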

Additional observations from a re-analysis of the deposited data

Results flagged for a closer look

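For 7 of the listed Th17 pathway genes the genotype change differed between cultures in a direct test (edgeR, genotype by culture, log2 change in iTreg minus log2 change in Th0), where 4.49% of all tested genes passed. Sgk1 had a difference of -4.30 (adjusted p = 0.000343), falling in iTreg and rising in Th0. Runx1 had -3.76 (adjusted p = 0.000896) and Ccr6 had -6.43 (adjusted p = 0.00277), each lower in Ezh2-deleted iTreg cells without a called change in Th0. Maf had -4.21 (adjusted p = 0.0106) and Fosl2 -2.04 (adjusted p = 0.0129), with a rise in Th0 that was smaller or not called in iTreg. Il12rb2 had 3.59 (adjusted p = 0.0296), with a called rise in iTreg alone, and its adjusted p was 0.0655 to 0.0879 without iTreg Ezh2KO.150, Ezh2KO.153 or Ezh2fl/fl.155 or any 1 of the 6 Th0 libraries. Il1rl1, the IL-33 receptor, had -6.52 (adjusted p = 0.0371), with 0.496, 0.472 and 0.137 CPM in Ezh2-deleted and 0.724, 0.693 and 8.18 CPM in control iTreg libraries, and 0.927, 1.78 and 1.27 CPM in Ezh2-deleted and 0.04, 0.11 and 0.19 CPM in control Th0 libraries. The Il1rl1 difference had an adjusted p of 0.0711 to 0.114 when any Th0 library, or iTreg Ezh2KO.150 or iTreg Ezh2KO.153, was left out, and its highest value was in the iTreg library Ezh2fl/fl.177, which stood apart.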

How the results depend on the processing

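Another scaling, DESeq2 or no filter changed neither the direction nor the call of any of the 5 Rora contrasts. Without both iTreg libraries that stood apart, Rora had log2 changes of 0.92 in iTreg, -2.27 between the genotype changes and -0.34 for iTreg against Th0 in Ezh2-deleted cells. Without both libraries titled Ezh2KO.165 the last 2 were -2.62 and -0.19, and without iTreg Ezh2KO.165 alone they were -2.78 and -0.34. Leaving out each library in turn gave Rora 3.03 to 3.39 for genotype in Th0, 0.42 to 1.83 for genotype in iTreg, -2.78 to -1.37 for their difference, -0.34 to 0.88 for culture in Ezh2-deleted cells and 1.93 to 2.70 for culture in control cells. For H3K27me3 the ranges were -0.89 to -0.68 (Il17a), -0.68 to -0.41 (Il17f), -0.61 to -0.51 (Il1r1), -0.36 to -0.11 (Il23r) and -0.40 to -0.30 (Rora). TMM scaling moved Il17f to -0.77 and Il23r to -0.47, past the threshold (adjusted p = 0.0154 and 0.0180, edgeR). The causes were not tested. Where a group is left with 1 ChIP library, that library is assumed to vary like the other group.

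The titles Ezh2KO.165 and Ezh2fl/fl.177 each occur in an iTreg and a Th0 library of the same genotype. Deviations from the group means correlated by r = 0.0445 for Ezh2KO.165 and -0.0031 for Ezh2fl/fl.177. The labels do not say whether a number marks 1 animal, and the 2 Ezh2KO.165 libraries were the only ones of the 12 with Xist above 1 CPM, so whether same-numbered samples share a source was not settled. With the number as a random replicate block (limma voom, block correlation -0.0087) Rora had log2 changes of 3.12, 1.15, -1.97, 0.28 and 2.26 for genotype in Th0, genotype in iTreg, their difference, culture in Ezh2-deleted and culture in control cells, with adjusted p of 0.0203, 0.206, 0.342, 0.659 and 0.0473, and no Rora call changed. Under the block Ahr in Th0 had an adjusted p of 0.0511 and Il1rl1 between cultures 0.101. The depth limits Il17a, Il17f, Il1r1 and Il23r, whose RNA counts stayed at 17 or below, and a search of the whole 300 promoter bases gave the same hexamer matches.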

Other observations

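Some marker genes were high in the libraries that stood apart. Itgam, an integrin of myeloid cells and some T cells, had 1.12, 0.858 and 8.08 CPM in the Ezh2-deleted iTreg libraries (the last being Ezh2KO.165), and 2.59, 2.65 and 24.7 CPM in the control iTreg libraries (the last being Ezh2fl/fl.177), with at most 0.492 CPM in Th0. Il17rb, the IL-25 receptor, had 1.1 CPM in iTreg Ezh2KO.165 and 5.32 CPM in iTreg Ezh2fl/fl.177, against 0.0858 to 0.305 CPM in the other iTreg libraries. Its fellow ILC2 marker Klrg1 had no read in iTreg. Cd8a, the coreceptor chain of CD8 T cells, was instead lowest in the library of each iTreg genotype that stood apart. It had 122, 117 and 17.7 CPM in Ezh2-deleted and 15.8, 17.1 and 8.58 CPM in control iTreg libraries, and at most 2.94 CPM in Th0. Cd8b1 was higher in Ezh2-deleted iTreg cells (log2 change 0.88, SE 0.171, adjusted p = 0.00597, edgeR), where 9.45% of all genes were. Cd8a did not pass there (2.63, SE 0.819, adjusted p = 0.0543, edgeR). Cd8a and Cd8b1 together summed to 39.6 to 138 CPM in Ezh2-deleted and 18.0 to 26.7 CPM in control iTreg libraries. The ILC2 list summed to 136 to 518 CPM in Ezh2-deleted and 261 to 430 CPM in control iTreg libraries, most of it Bcl11b, a factor that T cells share. The summed myeloid list was 2.85 to 9.95 CPM in Ezh2-deleted and 4.36 to 26.2 CPM in control iTreg libraries, and S100a9 had no read in any library.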
